A study of Mus musculus with 9 samples.

Results

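Hoxa13 binding in the early autopod, the future hand and foot, was set against Hoxa13 binding in the limb bud at E12.5 (E stands for embryonic day). The deposited list for the autopod at E11.0 held 50890 peaks and that for the limb bud at E12.5 held 44699, out of 243649 peaks in the 5 lists of the series. A peak is an interval called as enriched after chromatin immunoprecipitation and sequencing (ChIP-seq). Peaks of both lists that shared at least 1 bp were merged into 15601 joint sites. Of these, 1977 met no peak of the Hoxa13 list at E11.5, the stage in between.

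All libraries came from wild-type embryos of the outbred ICR strain and home-made antibodies. The E11.0 chromatin was pooled from 11 pairs of autopods, the E11.5 chromatin came from the whole limb buds of one litter, and the E12.5 tissue is labelled limb bud, with no number of embryos in the labels. Libraries of E11.0 and E11.5 were made with one commercial kit and those of E12.5 by an earlier published procedure. Stage, tissue and protocol thus change together between E11.0 and E12.5 and cannot be told apart, and each stage has 1 library, so no difference between stages has a replicate check. A whole limb bud also holds cells outside the autopod, and a peak list does not say in what share of the cells a site was bound.

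Hoxa13 is a homeodomain transcription factor of the posterior end of the HoxA cluster. It is made in the distal limb, where it acts with Hoxd13 to form the digits, and its loss disturbs the hand and foot while more proximal bones are largely spared. Hoxa11, a neighbour in the same cluster, is known for its role in the forearm and lower leg, and the domains of both factors separate as the limb grows. Homeodomain proteins of this family recognise short AT-rich sequences, and many of their sites in the limb lie in enhancers far from genes.

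The lists were of similar length but of different shape. E11.0 peaks had a median width of 245 bp (quartiles 203 and 309) and covered 13.9 Mb, which is 0.528% of the span of chromosomes 1 to 19, X and Y that holds peaks. E12.5 peaks had a median width of 154 bp (quartiles 125 and 201) and covered 7.99 Mb, or 0.303% of that span. Each list had its own smallest width, 187 bp at E11.0, 110 bp at E12.5 and 203 bp at E11.5. At that floor stood 13.4% of E11.0 peaks and 8.63% of E12.5 peaks. The E11.5 list was the longest, with 143460 peaks and a median width of 286 bp, so meeting E11.5 is easier than meeting either of the outer stages. The lists give no peak height and no read depth.

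A minority of either outer list recurred in the other, though each list covered under 1% of the span. From the autopod side, 15637 of 50890 E11.0 peaks, or 30.7%, met an E12.5 peak (95% exact Clopper-Pearson interval 30.3 to 31.1). From the limb bud side, 15909 of 44699 E12.5 peaks, or 35.6%, met an E11.0 peak (35.1 to 36.0). These intervals, like all below, cover counting error over peaks, not the spread between embryos. The joint sites paired single peaks almost throughout, since 98.4% of the 15601 held 1 peak of each list.

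The paired peaks lay close to each other. Over 15945 overlapping pairs, the centres were a median of 45 bp apart (quartiles 21 and 82) and the shared stretch was a median of 161 bp long (quartiles 122 and 212). In 7972 pairs the E12.5 peak lay wholly inside the E11.0 peak, and in 85.5% the E11.0 peak was the wider. The median ratio of E11.0 to E12.5 width was 1.55. Widths of the paired peaks had a Spearman correlation of 0.255 across pairs, a description of intervals that share a locus and are not replicates. With each peak replaced by 200 bp around its centre, the shares were 30.2% for E11.0 and 34.5% for E12.5, close to those of the full peaks. With a reciprocal overlap of 50% they were 19.2% and 21.9%.

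Wider peaks recurred more often in both lists. In the narrowest 20% of E11.0 peaks, at a median of 187 bp, 17.04% met E12.5 (16.3 to 17.8), and in the widest 20%, at a median of 385 bp, 51.9% did (50.9 to 52.9). The E12.5 list had the same order, from 21.1% at a median of 112 bp (20.3 to 22.0) to 58.9% at 270 bp (57.8 to 59.9). With each list cut into 5 classes of width, the share rose at each step, and no neighbouring intervals overlapped. Wide peaks are easier to hit by an overlap of 1 bp, and the part of width itself in this order was not tested.

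Most peaks shared by the outer stages were also peaks at E11.5. Of the E11.0 peaks, 13646 met both other lists and 1991 met E12.5 but not E11.5. A further 15942 met E11.5 but not E12.5, and 19311 (37.9%, 37.5 to 38.4) met neither. Of the E12.5 peaks, 13760 met both, 2149 met E11.0 but not E11.5, 17855 met E11.5 but not E11.0, and 10935 (24.5%, 24.1 to 24.9) met neither. The largest class was thus peaks that met neither list at E11.0, and peaks that met E11.5 alone at E12.5.

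**Figure D1:**
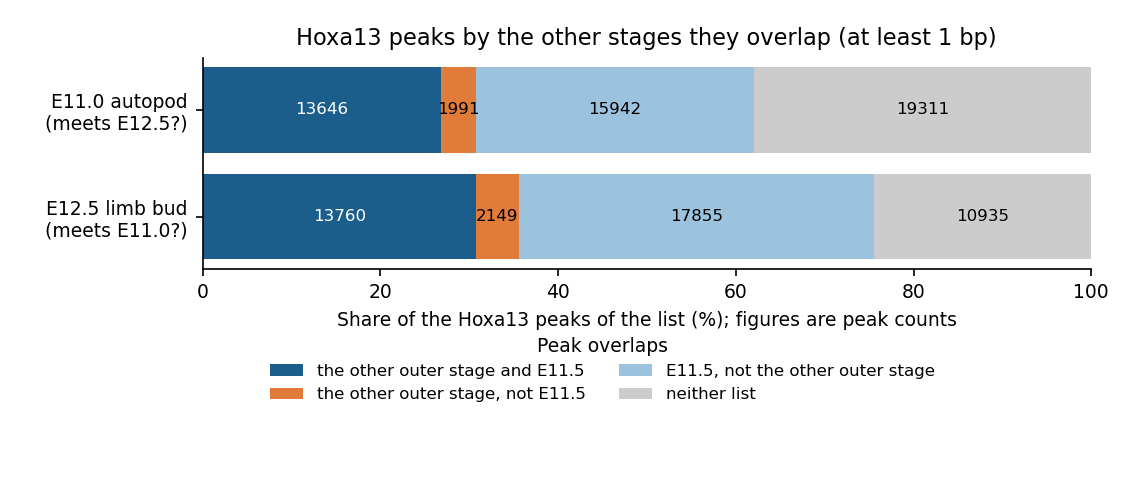
Horizontal bars give the share (%) of the Hoxa13 peaks of the E11.0 and the E12.5 list by the other lists they overlap, with peak counts printed in the bars. The orange segment, peaks shared by the outer stages without E11.5, holds 1991 E11.0 peaks and 2149 E12.5 peaks.

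An E11.0 peak that was also found at E11.5 was found again at E12.5 far more often than one that was not. Of 29588 E11.0 peaks with an E11.5 peak, 46.1% met E12.5, and of 21302 without one, 9.35% did, a difference of 36.8 percentage points (95% Newcombe interval 36.1 to 37.5). Of 31615 E12.5 peaks with an E11.5 peak, 43.5% met E11.0, and of 13084 without one, 16.4% did, a difference of 27.1 points (26.3 to 27.9). Both contrasts stood in each of the 5 width classes. Among the narrowest E11.0 peaks 30.6% with E11.5 and 6.07% without met E12.5, and among the widest 62.9% and 17.7% did. Among the narrowest E12.5 peaks the shares meeting E11.0 were 27.6% and 12.8%, and among the widest 63.0% and 30.7%.

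**Figure D2:**
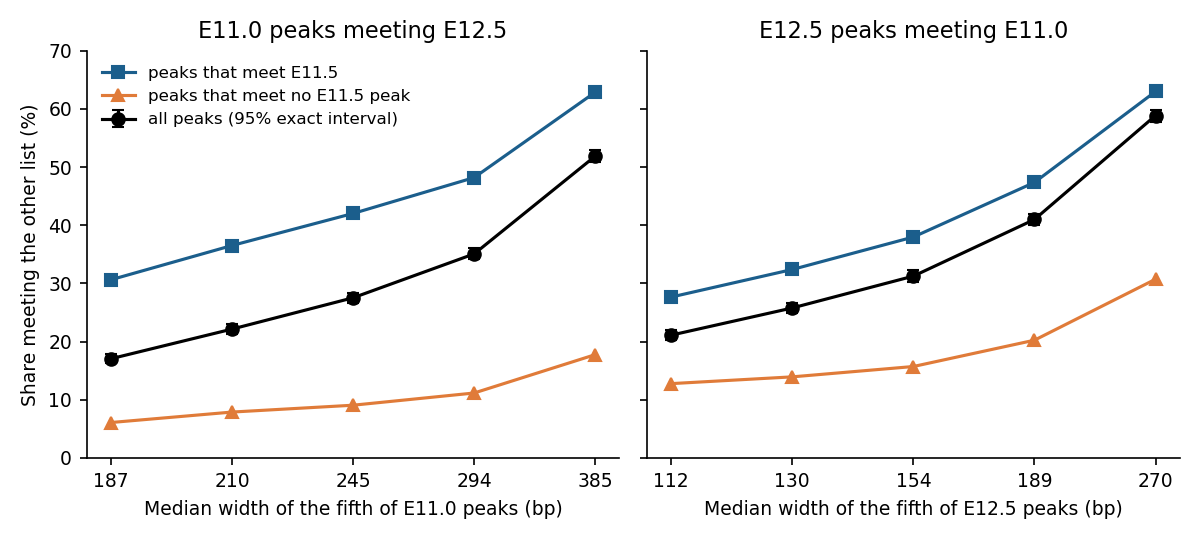
The share (%) of E11.0 peaks meeting E12.5 (left) and of E12.5 peaks meeting E11.0 (right) is plotted against the median width of each of 5 equal width classes, for all peaks with 95% exact intervals, for peaks that meet E11.5 and for those that do not. All lines rise with width, and the line without E11.5 lies lowest in each class.

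The sites shared by E11.0 and E12.5 with no E11.5 peak numbered 1977 of 15601, or 12.7% (12.2 to 13.2). Lacking E11.5 was less usual here than in the lists at large, where 41.9% of E11.0 peaks and 29.3% of E12.5 peaks met no E11.5 peak. Among E11.0 peaks, 12.7% of those that met E12.5 lacked E11.5 against 54.8% of those that did not, a difference of 42.0 points (41.3 to 42.8). Among E12.5 peaks, the shares were 13.5% and 38.0%, a difference of 24.5 points (23.7 to 25.2). At one list length of 44699 peaks per stage, chosen by width, 33.3% of shared E11.0 peaks and 33.7% of shared E12.5 peaks lacked E11.5. List length and peak width change together in this cut, and the part of each was not tested.

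These sites were narrower than joint sites with E11.5. Their E11.0 peaks had a median width of 250 bp against 289 bp, and their E12.5 peaks 148 bp against 187 bp. The shared stretch of the pairs was a median of 129 bp against 166 bp, and centres were 52.5 bp apart against 44 bp. Among the shared E11.0 peaks, those without E11.5 made up 19.7% in the narrowest 20% of the list and 8.33% in the widest. In the E12.5 list they made up 26.6% and 6.69%. Among shared peaks, the narrowest thus lacked a partner at E11.5 most often. Narrow intervals are also harder to hit by an overlap of 1 bp, the rule that split these sites, and the part of width itself was not tested.

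Few of them were near misses. The nearest E11.5 peak lay a median of 5469 bp away (quartiles 2179 and 11981), 33 of the 1977 sites had one within 200 bp and 140 (7.08%) within 500 bp. Peaks that met neither other list lay about as far from E11.5, at a median of 6190 bp for E11.0 and 5290 bp for E12.5. In 69.7% of the sites an E11.5 peak was found within 10 kb, against 66.4% and 69.9% of those unshared peaks.

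**Figure D3:**
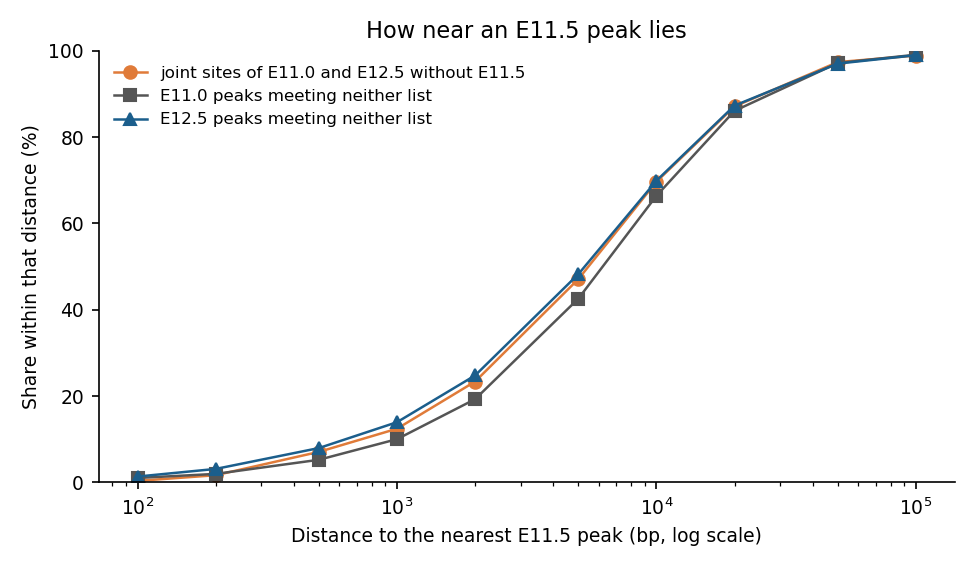
The curves give the share (%) of intervals that have an E11.5 Hoxa13 peak within the distance on the x axis (bp, log scale), for the 1977 joint sites without E11.5 and for peaks of E11.0 and E12.5 that meet neither other list. The curves run close together, with 47.1%, 42.6% and 48.2% within 5000 bp.

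In the genome, the sites without E11.5 lay in part where peaks of E11.0 or E12.5 crowd together. A window of 1 Mb was called dense when its peak count in any Hoxa13 list was more than 3 interquartile ranges above the upper quartile, which takes 26 of 2651 windows on chromosomes 1 to 19, X and Y. By this rule 20 windows passed through E11.0 and 18 through E12.5, some through both, and 0 through E11.5, whose fullest window held 164 peaks against a bound of 189. Of the 1977 sites, 328 lay in dense windows and 111 on sequence not placed on those chromosomes, together 22.2% (20.4 to 24.1). Of the 13624 joint sites with E11.5, 6.62% did (6.21 to 7.05), a difference of 15.6 points (13.8 to 17.5). Under 50% reciprocal overlap the shares were 10.7% and 5.43%, a difference of 5.31 points. Dense windows were picked through the lists that define joint sites and never through E11.5, so that choice can itself give such a difference. The other 1538 of the 1977 sites lay outside dense windows and unplaced sequence. At least 1 site without E11.5 was found in 25 of the 26 dense windows, and in 1060 of all 2651 windows. Dense windows also hold more joint sites, 1039 in 26 windows against 14260 in the other 2625.

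Dense windows held 2985 E11.0, 1961 E12.5 and 2094 E11.5 peaks, and the other windows 46933, 41908 and 140776. All lists had more peaks per window there, E11.5 with 80.5 against 53.6, but windows picked for many E11.0 or E12.5 peaks have a low ratio of E11.5 to these lists by construction. Joint sites lacked E11.5 in 31.6% of cases in dense windows, 36.8% on unplaced sequence and 10.8% elsewhere. Input DNA and repeats were not analysed here, and their part in these counts was not tested.

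Chromosomes X and Y stood apart from the autosomes. On the 19 autosomes, 7.69% (chromosome 18) to 16.1% (chromosome 7) of joint sites lacked E11.5, with a median of 10.8%. Chromosome X had 254 such sites among 852, or 29.8% (26.8 to 33.0), and chromosome Y 14 among 20 (interval 45.7% to 88.1%). On Y the window from 2000001 to 3000000 alone held 17 of the 20 joint sites and 13 of the 14 without E11.5. The Y value thus describes mostly that window, and its interval counts clustered sites as separate. Outside dense windows the share on X was 24.1%, 99 of 410, still above the highest autosome, chromosome 7 at 15.4%. Chromosome X thus held 12.8% of the joint sites without E11.5 and 4.39% of those with it, a difference of 8.46 points (7.01 to 10.0), and 3.99 points (2.84 to 5.35) outside dense windows and unplaced sequence. The lists themselves had 6.40% of E11.0, 4.48% of E12.5 and 3.16% of E11.5 peaks on X.

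**Figure D4:**
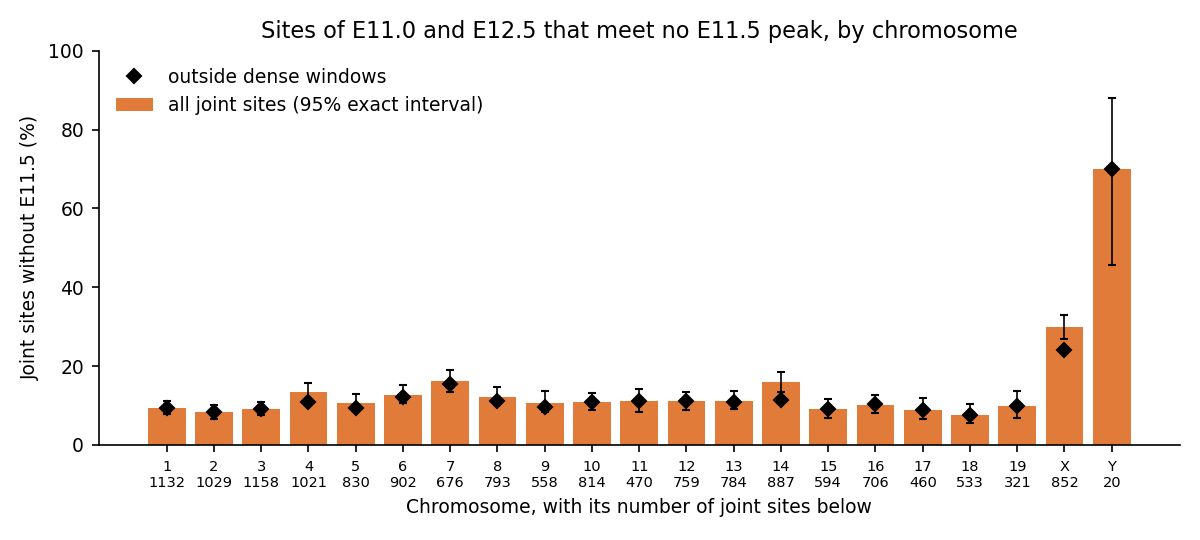
Bars give the share (%) of joint E11.0 and E12.5 sites that meet no E11.5 peak on each chromosome, with 95% exact intervals, and diamonds the share outside dense windows. Chromosome X (29.8%) and chromosome Y (14 of 20 sites) lie above all autosomes.

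Among autosomes, the share without E11.5 fell most on chromosomes 4 and 14 when dense windows were left out. It was also lower on chromosomes 2, 5, 6, 7, 8, 9 and 13, and higher on chromosome 16. Dense windows were picked for many E11.0 or E12.5 peaks, and that choice can itself lower the share outside them. Chromosome 14 had 141 sites without E11.5, 15.9% of its joint sites, but 86 and 11.3% outside dense windows. Its share of all such sites was then 5.59%, against 5.31% of joint sites with E11.5, a difference of 0.278 points whose interval (−0.839 to 1.60) includes 0. On chromosome 4 it was 13.5% in all and 10.8%, with 91 of its 138 sites, outside them. Chromosome 7 had 15.4% of 651 there.

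The overlap of the outer stages varied little between autosomes. From 27.7% (chromosome 7) to 33.8% (chromosome 8) of E11.0 peaks recurred at E12.5, and from 31.5% (chromosome 11) to 37.1% (chromosome 14) of E12.5 peaks met E11.0. On chromosome X, 26.4% of 3259 E11.0 peaks recurred at E12.5, whereas 44.1% of 2003 E12.5 peaks met E11.0. Per window, E11.0 and E12.5 counts had a Spearman correlation of 0.818 over 2625 windows outside the dense ones, which share mappable sequence and the other properties of their region.

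The windows richest in sites without E11.5 were on chromosome X. The window from 31000001 to 32000000 held 33 of its 57 joint sites without E11.5, that from 4000001 to 5000000 held 28 of 67, and that from 30000001 to 31000000 held 25 of 60. Chromosome 4 from 145000001 to 146000000 came next with 22 of 72, before another window of chromosome X, from 3000001 to 4000000, with 21 of 58. Each of the 4 X windows had 159 to 181 E11.0 and 97 to 112 E12.5 peaks and 62 to 69 E11.5 peaks, where the median window held 16, 15 and 51. Chromosome 14 held 20 of 39 from 43000001 to 44000000 and 17 of 28 in the window before it. Chromosome 8 from 19000001 to 20000000 held 16 of 58, chromosome 16 from 3000001 to 4000000 held 15 of 29, and Y_random from 17000001 to 18000000 held 15 of 50. These 10 windows together held 212 sites, or 10.7%.

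The rest were scattered. Of all windows, 717 held exactly 1 such site, and 1591 of the 2651 on placed chromosomes held none. Outside dense windows and unplaced sequence, the next such site was a median of 417618 bp away, and 5.20% had one within 10 kb.

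The widest of these sites were long intervals at a few places. At the start of chromosome 9, 7 joint sites without E11.5 lay between 2999976 and 3038358, where 7 E11.0 peaks faced 65 E12.5 peaks. The longest, from 3019687 to 3031052, was 1 E11.0 peak of 11366 bp that met 21 E12.5 peaks, the widest of them 516 bp. Its neighbours from 3031120 to 3038358, 3012659 to 3019602 and 2999976 to 3005343 met 15, 12 and 6 E12.5 peaks. The nearest E11.5 peak was at least 100898 bp away from each of these 4. On chromosome 17 the shape was the reverse: from 39979964 to 39984292 a single E12.5 peak of 4329 bp enclosed an E11.0 peak of 221 bp.

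Outside dense windows, the next in width lay on chromosome Y from 2766235 to 2767431 (1197 bp), chromosome 2 from 98506339 to 98507524 (1186 bp), chromosome 15 from 74916369 to 74917479 (1111 bp) and chromosome Y from 2769714 to 2770657 (944 bp). At all of them the E11.0 peak spanned the whole site, and the widest E12.5 peak inside it had 188 to 251 bp. The widest joint sites with E11.5 outside dense windows were on chromosome 2 from 3881689 to 3885720 (4032 bp), chromosome 9 from 114082002 to 114084737 (2736 bp), chromosome X from 123302912 to 123305539 (2628 bp), chromosome 12 from 20248685 to 20251187 (2503 bp) and chromosome 9 from 122670172 to 122672412 (2241 bp). The first and the one on chromosome 12 also met Hoxa11. Sites over 1000 bp were rare among both kinds, 12 of 1977 without and 102 of 13624 with E11.5.

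Around known limb genes, nearly every site shared by E11.0 and E12.5 was also a peak at E11.5. Over 30 windows of 1 Mb chosen for limb genes, 208 joint sites were counted and 8 of them, 3.85%, lacked E11.5. The share was 12.7% over all joint sites and 10.8% outside dense windows and unplaced sequence, where all but 1 of the limb windows lay. All 30 windows held a joint site, with a median of 5, which is also the median over all windows, and 24 held none without E11.5. The E11.5 list had 3.91 peaks for each E11.0 peak in these windows against 2.86 over all placed windows, and 3.39 for each E12.5 peak against 3.26. Windows were placed to the megabase in mm9, the mouse build of the files, from general knowledge of gene positions. No mm9 annotation was used here, so sites are not assigned to exons, introns or promoters.

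The windows of the HoxD and HoxA clusters held more joint sites than 96.3% and 90.5% of all placed windows, and none of these sites lacked E11.5. The HoxD window, chromosome 2 from 74000001 to 75000000, held 34 E11.0 peaks, 44 E12.5 peaks and 15 joint sites, and 44.1% of its E11.0 peaks met E12.5, beside 30.7% of all. From the other side 34.1% of its E12.5 peaks met E11.0, beside 35.6% of all. Its genes at the posterior end, such as Hoxd13, act in digits beside Hoxa13. The window on its centromeric side held 13 joint sites among 25 E11.0 and 26 E12.5 peaks. That on the telomeric side held 8 among 26 and 32. Digit enhancers of HoxD are known on the centromeric side of the genes and enhancers of the forearm phase on the telomeric side. Windows cut by megabase do not tell how these enhancers divide between the HoxD window and its neighbours. In the HoxA window, chromosome 6 from 52000001 to 53000000, E12.5 peaks outnumbered E11.0 peaks 38 to 20, and 12 sites were joint. The HoxB window had 3 and the HoxC window 2 joint sites. None of the 32 joint sites of the 4 cluster windows lacked E11.5. Taking 3 counts as the limit of a count of 0, this allows a share of up to 9.38%. That limit is approximate, not an exact interval, and lies too near the 10.8% outside dense windows to tell these shares apart. The HoxD and HoxA windows also held 129 and 114 E11.5 peaks, and the HoxB and HoxC windows 37 and 52, where the median window held 51.

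In the HoxD window the joint sites ran from 74035818 to 74970030. They included 4 close together, from 74358350 to 74358887, 74373922 to 74374266, 74377775 to 74378080 and 74410935 to 74411167. The widest was from 74457384 to 74458278, where an E12.5 peak of 895 bp enclosed an E11.0 peak of 227 bp. Next were 74636451 to 74636770 and 74641054 to 74641264. The HoxA window held 4 sites between 52151000 and 52207580 and the other 8 from 52417900 to 52970736. Its widest were 52924834 to 52925644 (811 bp) and 52176208 to 52176838 (631 bp), the latter with nearly equal peaks of 618 bp at E11.0 and 628 bp at E12.5. In the HoxB window they were 96142851 to 96143565, 96327435 to 96327876 and 96483106 to 96483411 on chromosome 11. The HoxC window on chromosome 15 had 102728393 to 102728738 and 102844878 to 102845258.

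Among patterning genes, the window of Gli3, which restrains digit number in the anterior limb, held 13 joint sites, and that of Hand2, which sets up the posterior limb, also held 13, from 46 E11.0 and 39 E12.5 peaks. The window of Shh, the posterior signal of the limb, held 1, and the next window, with its limb enhancer inside Lmbr1, held 7 of 9 E12.5 peaks. Grem1 and Fmn1 shared a window with 2. Of the windows of Eph receptors, which take part in cell sorting in the limb, Epha3 held 20 joint sites from 47 E11.0 and 62 E12.5 peaks, Epha7 held 13 and Epha4 held 4. The Epha3 window was one of the 26 dense ones.

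Windows of proximal limb genes held shared sites as well. Shox2, a gene of the proximal limb skeleton, had 13 in its window, Meis2 had 12 and Meis1, like Meis2 a homeobox gene of the proximal limb, had 6, while Irx3 and Irx5 together had 8. In that order, 41.9%, 54.5%, 20.7% and 47.1% of the E11.0 peaks of these windows met E12.5. Among genes of cartilage and joints, Sox9 had 5 E11.0 and 17 E12.5 peaks with 3 joint sites in its window, and Gdf5 had 11 of each with 5 joint sites. The windows of Aldh1a2 and Cyp26b1, which make and degrade retinoic acid, held 5 each. Signalling genes had 7 for Bmp2, 4 for Fgf8 and 2 for Bmp7, and the distal genes Msx2, Sall1 and Msx1 had 4, 3 and 2. T-box gene windows had few, 2 for Tbx2 and Tbx4 and 1 for Tbx3 and Tbx5.

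In 20 of the 30 limb windows E12.5 peaks outnumbered E11.0 peaks, in 7 the order was the reverse and in 3 the numbers were equal. Over all 2651 windows, 35.7% had more E12.5 than E11.0 peaks. The E11.0 list is the longer one, so such counts compare lists and not the strength of binding.

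**Figure D5:**
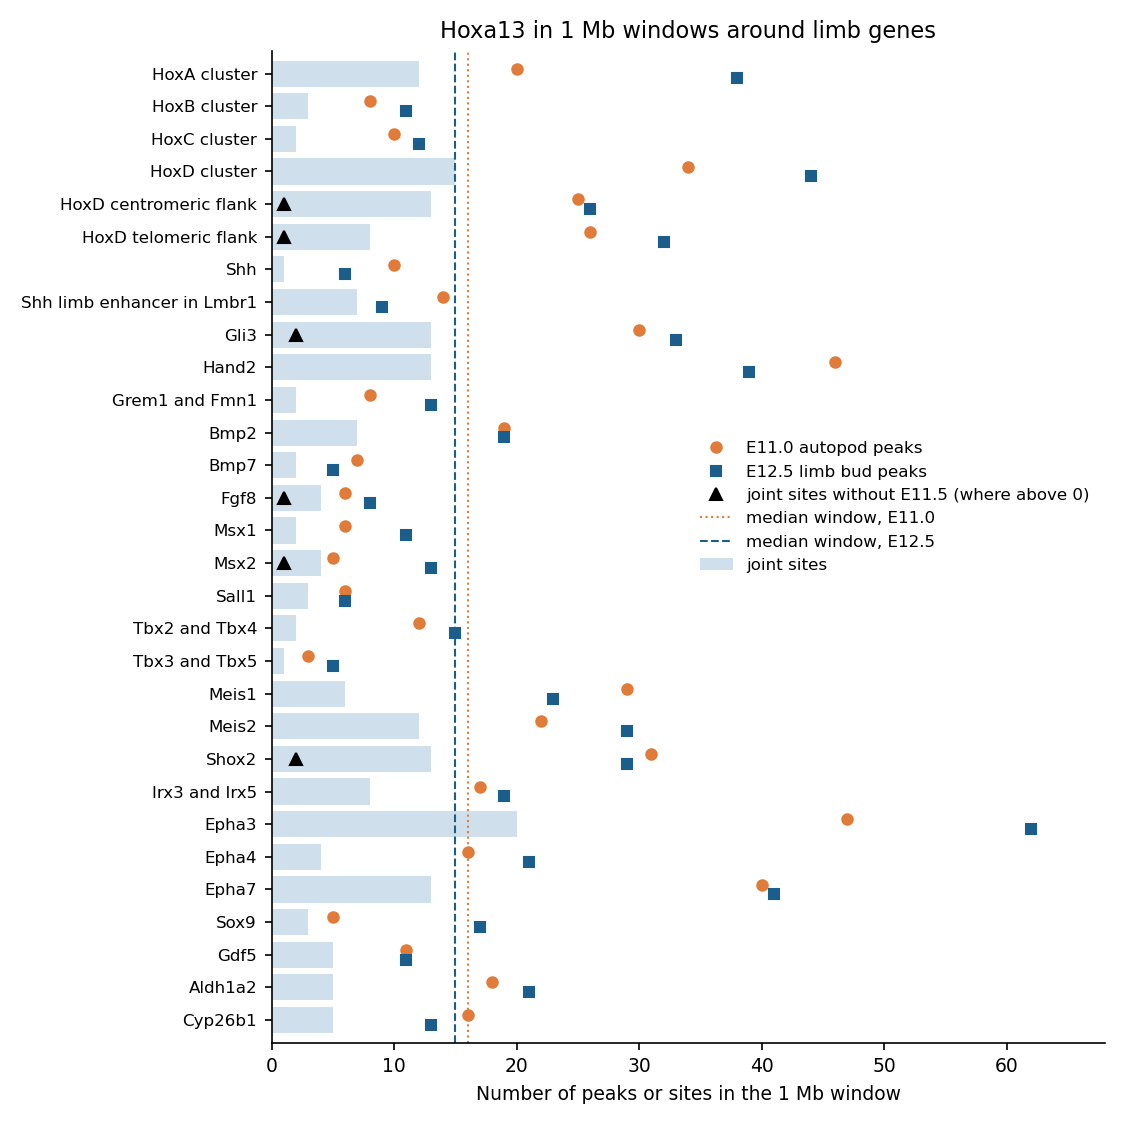
For each 1 Mb window around limb genes, the number of E11.0 peaks (circles), E12.5 peaks (squares), joint sites (bars) and joint sites without E11.5 (triangles, where above 0) is given, with dotted and dashed lines at the median window of E11.0 (16) and E12.5 (15). Joint sites without E11.5 appear in 6 of 30 windows, with 1 or 2 in each.

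The 8 sites without E11.5 in limb windows were all modest in width. In the Gli3 window they lay on chromosome 13 from 15011749 to 15012078 and from 15523586 to 15523929, 14616 and 8564 bp from the nearest E11.5 peak. The Shox2 window had sites on chromosome 3 from 66092794 to 66093160 and from 66581601 to 66581818. In the Msx2 window the site was on chromosome 13 from 53154367 to 53154642, and in the Fgf8 window on chromosome 19 from 45724470 to 45724845. Beside HoxD, one lay on the centromeric side from 73414881 to 73415112 and one on the telomeric side from 75758277 to 75758599, the latter 503 bp from an E11.5 peak. In each window all other joint sites met E11.5, 11 of 13 for Gli3 and for Shox2.

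Hoxa11, for which limb buds of E11.5 gave replicates 1 and 2, is a readout that the choice of sites did not use. Both replicates share stage and tissue with the E11.5 Hoxa13 library that splits the sites. Replicate 1 also shares an input library with it, by the title. The parts of stage, tissue and input in the contrast below were not tested. Of all joint sites, 306 (1.96%) met a Hoxa11 site found in both replicates. Among joint sites without E11.5 Hoxa13 the number was 8 of 1977 (0.405%, 0.175 to 0.796), and among those with it 298 of 13624 (2.19%, 1.95 to 2.45). The difference was −1.78 points (−2.11 to −1.33), and outside dense windows and unplaced sequence −1.62 points (−1.88 to −1.22), with 2 of 1538 against 223 of 12722. These numbers depend on the replicates used. Against the peaks of replicate 2 alone, 39 of the 1977 sites (1.97%) met Hoxa11, beside 2.86% of those with E11.5, and against replicate 1 alone 11 (0.556%) did, beside 4.49%.

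Among peaks that did not recur between the outer stages, those of E12.5 met Hoxa11 more often than those of E11.0. Of E11.0 peaks that met no E12.5 peak, 39 of 35253 (0.111%, 0.0787 to 0.151) met a replicated Hoxa11 site. Of E12.5 peaks that met no E11.0 peak, 448 of 28790 did (1.56%, 1.42 to 1.71), a difference of 1.45 points (1.30 to 1.60). Peaks that did recur met Hoxa11 in 2.03% of cases at E11.0 (1.81 to 2.26) and 2.02% at E12.5 (1.80 to 2.25). Taken whole, in both lists the peaks that did not recur thus met Hoxa11 less often than those that did. Among peaks that met E11.5, however, the E12.5 shares were alike, 2.30% without recurrence (410 of 17855) and 2.27% with it (312 of 13760). At E11.0 they were 0.157% (25 of 15942) and 2.26% (308 of 13646). Among peaks without E11.5, recurring ones met Hoxa11 in 0.419% of cases at E12.5 and 0.452% at E11.0. Among peaks that met neither other Hoxa13 list, the shares were 14 of 19311 at E11.0 (0.0725%) and 38 of 10935 at E12.5 (0.348%, 0.246 to 0.477), a difference of 0.275 points (0.169 to 0.407). Limb buds were the source of the Hoxa11 and the E12.5 libraries, and the autopod that of E11.0, so tissue and stage cannot be told apart here.

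Most of the 8 Hoxa11 sites lay in one place. On chromosome X, 5 of them fell within 35.3 kb, from 92127971 to 92163241, in a dense window, with E11.5 Hoxa13 peaks 343 to 937 bp away. One was on the mitochondrial genome. The other two were on chromosome 6 from 37595312 to 37595672 and chromosome 12 from 55783702 to 55784006, with fold enrichments of 5.61 and 4.39 in replicate 2 as the authors deposited them. The authors' values were 2.17 to 2.95 for those on X and 1.99 for the mitochondrial one.

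In the Hox cluster windows, 6 of the 32 joint sites met Hoxa11, beside 1.96% of all joint sites. The HoxA window had 4, at 52151000 to 52151300, 52166666 to 52166933, 52176208 to 52176838 and 52551584 to 52551829. The HoxB site from 96142851 and the HoxC site from 102844878 were the others. In the HoxD window 0 of 15 joint sites met it, which by the same limit of 3 counts allows a share of up to 20% and so includes that of all joint sites.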

How the data were processed

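Peaks were called by the submitters, 1 list per library. The submitters' processing notes name MACS2 2.1.0, Bowtie2 2.2.2, CASAVA 1.4 and mm9. Their roles, the thresholds and the use of input DNA in calling are not given in the sources used here. The lists hold chromosome, start and end. Hoxa11 replicate 2 adds a fold enrichment, deposited by the authors as a ratio to background and used only to describe its peaks. Positions are printed 1-based in mm9.

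Overlaps of at least 1 bp, merged joint sites and window counts were computed with Python 3.11.15, numpy 2.4.6 and pandas 2.3.3, and tested on simulated lists and against bedtools. A site belongs to the window of its centre. Shares have exact Clopper-Pearson intervals and differences Newcombe intervals, both at 95%, and a count of 0 the limit of 3 counts, with no p-value, since peaks are not replicates and each stage has 1 library. Replicated Hoxa11 sites are merged overlapping peaks of both replicates, which the labels do not tie to separate litters.

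The named sites are the 10 windows richest in joint sites without E11.5, the 5 widest sites of 3 kinds, every such site with Hoxa11 or in a limb window, and the joint sites of the Hox cluster windows. Members, lists and the definition of dense windows were chosen with earlier results of these data known. Sequences and genes were not joined to peaks, because the reference tables are of GRCm38.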

Additional observations from a re-analysis of the deposited data

How the results depend on the processing

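Read depth is unknown, peak heights are not given for Hoxa13, and 1 library per stage leaves no replicate to leave out. No paired analysis was possible because the Hoxa13 groups have 1 library each and no result comes from a test across samples.

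Limiting the lists to chromosomes 1 to 19, X and Y left the 4 shares of peaks within their intervals. The share of E11.0 peaks meeting E12.5, 30.7%, was 19.2% under 50% reciprocal overlap, 30.2% with 200 bp around each centre, 32.8% with the widest 44699 peaks and 30.4% without dense windows and unplaced sequence. The share of E12.5 peaks meeting E11.0, 35.6%, was 21.9%, 34.5%, 33.4% and 34.4% in the same order. Of shared E11.0 peaks, 12.7% lacked E11.5, and 25.2%, 14.95%, 33.3% and 10.8% did under these settings, or 11.8% with no E11.5 peak within 500 bp. Of shared E12.5 peaks, 13.5% lacked it, and 46.6%, 15.4%, 33.7%, 11.1% and 12.2% did. Under 50% reciprocal overlap, a peak narrower than 50% of its partner cannot pass. Median widths were 154 bp at E12.5 and 286 bp at E11.5, so the 46.6% is not a share of peaks without any E11.5 overlap. The cause of the moves in these shares was not tested.

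Joint sites without and with E11.5 differed by 15.6 points in their share in dense windows and unplaced sequence. This was 5.31 points under 50% reciprocal overlap and 13.6 points with no E11.5 peak within 500 bp. The choice of dense windows through E11.0 and E12.5 counts bears on all of these values. The difference in Hoxa11 overlap, −1.78 points, was −0.890 without replicate 1 and −3.94 without replicate 2, and kept its direction in both.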

Other observations

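The windows in which the lists of E11.0 and E12.5 differed most in number were looked up after the counts had been seen. On chromosome 13, the window from 66000001 to 67000000 held 272 E11.0 peaks, 39 E12.5 peaks and 118 E11.5 peaks, and the window before it 178, 59 and 126. On chromosome X, the window starting at 3000001 had 180, 97 and 69 peaks in that order, and the one starting at 31000001 had 181, 104 and 62. On chromosome 2, 177000001 to 178000000 held 89, 11 and 83. In the other direction, the window of chromosome 9 that starts at 3000001 had 31 E11.0, 90 E12.5 and 49 E11.5 peaks. On chromosome 11 the window with the same start had 9, 58 and 23. Chromosome 7 had 50, 77 and 63 in its window from 9000001, chromosome 4 had 23, 47 and 106 in that from 76000001, and chromosome 14 had 29, 51 and 101 in that from 82000001. Of these windows, those on chromosomes 11, 4 and 14 were not dense. In the first chromosome 13 window 29 joint sites were found among 272 E11.0 peaks, 4 of them without E11.5.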
